A study of Homo sapiens with 6 samples.

Results

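SMARCA4 peaks were examined at 10 genes for transcription factors of blood progenitors and myeloid cells: GATA2, RUNX1, SPI1, ERG, FLI1, CEBPA, MEIS1, IKZF1, MECOM and GFI1. The genes were chosen by name, and their peaks were those that overlapped by at least 1 bp the gene's GENCODE span plus 20 kb on each side. This gave 32 peaks of the 28265 in the deposited list, in 8 of the 10 genes. The cells were K562, an established line from chronic myelogenous leukaemia with erythroid and megakaryocytic features, and SMARCA4 (BRG1) is an ATPase that drives SWI/SNF chromatin remodelling. There were 3 SMARCA4 ChIP libraries and 3 input libraries, from chromatin fixed first with disuccinimidyl glutarate (2 mM, 30 min) and afterwards with formaldehyde (1%, 10 min), then sheared into fragments of 150 to 400 bp. The series labels describe the ChIP libraries as technical replicates with 1 input, whereas the results of the study's paper call them biological replicates. The list holds only a chromosome, a start and an end for each region found in at least 2 of the 3 ChIP libraries, so it gives no depth for a peak, and no peak has a height or a spread between replicates.

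The 10 genes encode factors that set the state of haematopoietic stem and progenitor cells and their passage into myeloid or lymphoid cells. GATA2, RUNX1, ERG, FLI1, MEIS1 and the MECOM product EVI1 act in stem and progenitor cells, where several of them bind the same enhancers. SPI1 (PU.1), CEBPA and GFI1 act in myeloid differentiation, and IKZF1 (Ikaros) acts in lymphoid development. Many of their enhancers hold GATA motifs, and at some an E-box or a bare CTG lies a fixed distance before the GATA motif, an arrangement bound by TAL1 and GATA factors together.

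Motifs were searched on both strands: GATA (spelled AGATAA or AGATAG or TGATAA or TGATAG), AP-1 (TGAGTCA or TGACTCA), RUNX (TGTGGT), ETS (CCGGAAGT or CAGGAAGT), PU.1 (GAGGAAGT), CEBP (TTGCGCAA or TTGCACAA), MEIS (TGACAG), GFI1 (AATCACNGC), IKZF1 (TGGGAA), E-box (CAGCTG or CAGATG), SP/KLF (GGGCGG), CTCF, and a composite of CTG, 8 or 9 bases, and GATAA. A match describes the letters and shows no bound factor. The composite was found in 7 of the 32 peaks (21.9%, beside 11.4% of all peaks of the list), once in each. These 7 sites are shown because they carry the arrangement named above. Each is given in hg19, 5′ to 3′ on the strand of the composite, with CTG and GATAA in capitals.
GATA2, intron, chr3:128202142-128202182, minus strand: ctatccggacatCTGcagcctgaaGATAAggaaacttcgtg
GATA2, upstream, chr3:128214431-128214471, minus strand: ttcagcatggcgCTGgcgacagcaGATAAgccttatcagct
GATA2, upstream, chr3:128215513-128215553, minus strand: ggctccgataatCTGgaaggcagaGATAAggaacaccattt
RUNX1, intron, chr21:36280941-36280980, plus strand: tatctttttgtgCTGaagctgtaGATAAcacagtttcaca
RUNX1, intron, chr21:36399177-36399217, minus strand: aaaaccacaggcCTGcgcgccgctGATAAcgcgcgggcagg
SPI1, intron, chr11:47387912-47387952, minus strand: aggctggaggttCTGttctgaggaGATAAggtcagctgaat
IKZF1, intron, chr7:50423675-50423714, minus strand: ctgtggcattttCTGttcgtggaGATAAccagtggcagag

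The GATAA of all 7 composites was also a GATA match, so these motifs overlap. The CTG overlapped an E-box match at the GATA2 intron site. In SPI1 an E-box match lay 3 bases from the composite and in IKZF1 9 bases from it. A RUNX match lay 3 bases from the second RUNX1 composite, and an AP-1 match 15 bases from that of IKZF1. The composite was found in 6 of the 21 distal peaks (28.6%, 95% Wilson interval 13.8 to 50%), beside 17.0% of all 16474 distal peaks of the list. It was found in 3.51% of all promoter peaks, so the shares over all peaks given above depend on the mix of classes. In the central 200 bp, a window of equal length around each peak's centre that runs past the ends of the 4 distal peaks under 200 bp, it was found in 3 of 21 (14.3%), beside 13.1% of all distal peaks. These intervals cover counting error only, and peaks are not independent replicates.

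A peak was called a promoter peak when it lay within 1 kb of the start of a protein-coding transcript of the gene, and distal when it lay more than 1 kb from every protein-coding start. By this rule 11 of the 32 peaks were promoter peaks and 21 were distal, beside 41.7% and 58.3% of all peaks of the list. None of the 32 lay at the start of another coding gene. Over the windows of all coding genes, which overlap each other, this held for 11984 of 45558 peaks counted. Of the 21 distal peaks, 15 had their centre in an intron of the gene, 2 in an exon, 3 upstream and 1 downstream of it. None of these 21 distal peaks was within 1 kb of a transcript start of any biotype. The nearest coding start was the gene's own for 17 of the 21.

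**Figure D1:**
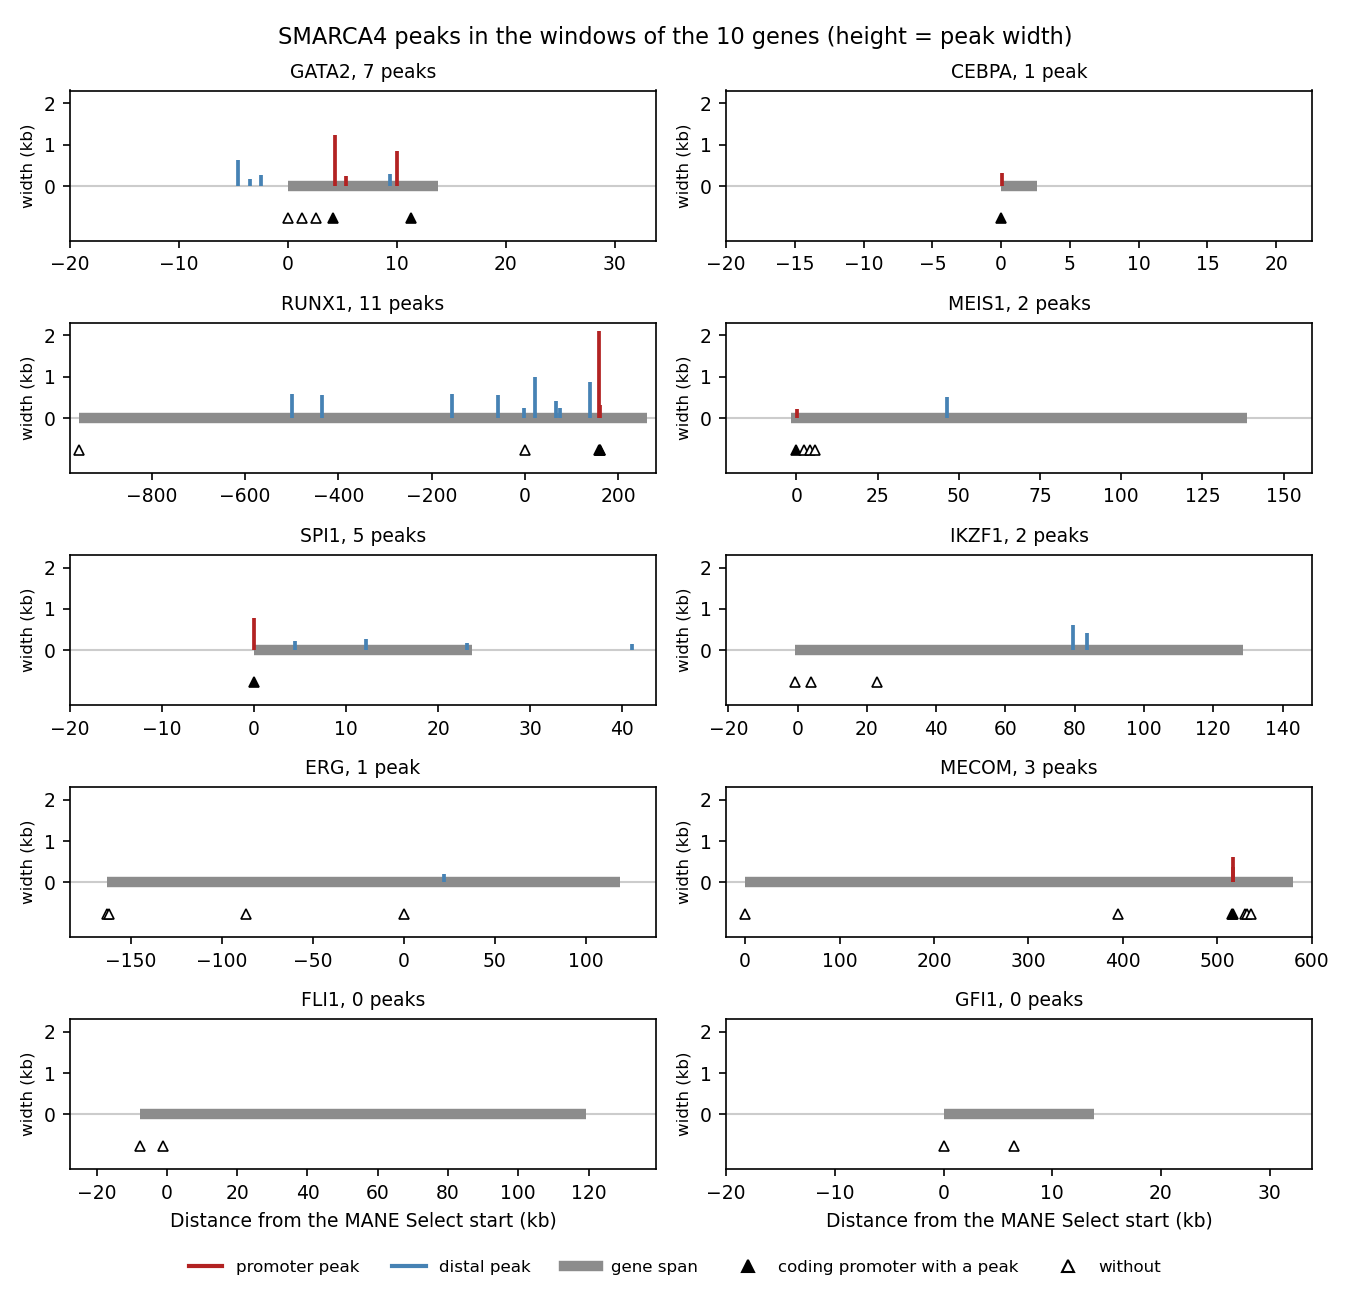
Each panel shows 1 gene's window, with the distance from the start of its MANE Select transcript in kb along the x axis (positive towards the gene's 3′ end) and the width of each peak in kb as the height of its bar; red bars are promoter peaks, blue bars distal peaks, the grey bar is the gene span and triangles mark the coding promoters, filled where a peak lay within 1 kb. RUNX1 has 11 peaks and GATA2 7, and FLI1 and GFI1 have 0.

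A peak in the window was found for 8 of the 10 genes (80.0%, Wilson interval 49.0 to 94.3%), beside 67.9% of 19756 coding genes counted in the same way. A promoter peak was found for 6 of 10 (60%, 31.3 to 83.2%), beside 46.9% of coding genes, and a distal peak likewise for 6 of 10, beside 44.4%. Each of these backgrounds lay inside the interval of the 10 genes. GATA2, RUNX1, SPI1 and MEIS1 had both kinds of peak, as did 28.5% of coding genes. CEBPA and MECOM had promoter peaks alone, as did 18.4% of coding genes. ERG and IKZF1 had distal peaks alone, as did 15.8%.

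The start of the MANE Select transcript, the single reference transcript chosen for a gene, had a peak within 1 kb in 3 of the 10 genes, SPI1, CEBPA and MEIS1. The background was 44.4% of coding genes. Starts at most 1 kb apart were joined into 1 promoter, which gave 34 promoters for the 10 genes, and 10 of these had a peak (29.4%), beside 29.4% of 35910 promoters of all coding genes. CpG-rich promoters, with an observed to expected CpG ratio of at least 0.6 in the sequence 500 bp to each side of the first start, had a peak in 7 of 16 cases (43.8%, 23.1 to 66.8%), beside 59.5% of such promoters of all coding genes. Of the 18 others 3 had a peak (16.7%, 5.84 to 39.2%), beside 9.05%. Neighbouring promoters of a gene could share a peak, so promoters are not independent. In MECOM the same 3 peaks were counted at the promoters at chr3:168865522 and chr3:168864076-168864463. The first of these, with a ratio of 0.55, is among the 18.

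**Figure D2:**
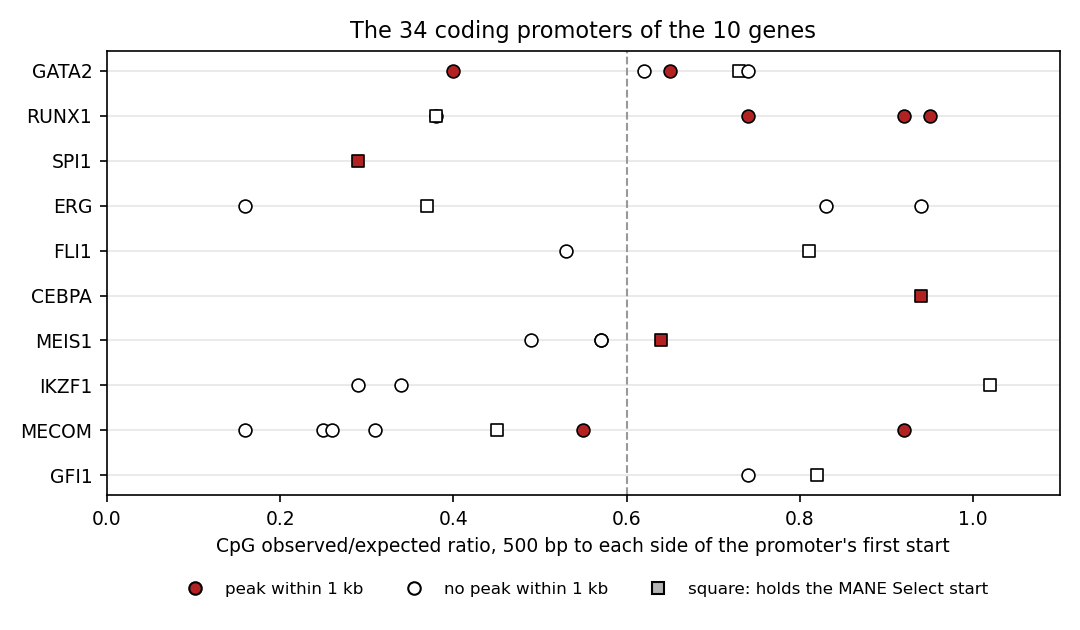
Each marker is 1 of the 34 coding promoters, placed by its observed to expected CpG ratio (x axis, no unit; dashed line at 0.6) in the row of its gene; squares hold the MANE Select start, filled markers have a peak within 1 kb, and markers at the same ratio overlap. The promoter of SPI1 has a peak at a ratio of 0.29, and the main promoter of IKZF1 has none at 1.02.

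GATA2, a zinc finger factor of stem and progenitor cells, held 7 peaks within 15.3 kb. The density of 13.0 peaks per 100 kb of window was above that of 96.1% of coding genes. Of its 5 promoters, that of the MANE Select transcript (chr3:128212016-128212044) had no peak, the nearest lying 2.37 kb away. The widest promoter peak, chr3:128207098-128208333 (1236 bp, 69.4% GC), overlapped the internal promoter at chr3:128206759-128207877 and held 2 G4 motifs, and a second peak of 244 bp covered a start of this promoter that lay outside the wide peak. The antisense gene GATA2-AS1 also has a start within 1 kb of the wide peak. The peak with the intron composite, chr3:128201642-128202489 (848 bp), is counted as a promoter peak because it lay 855 bp from the start of 1 short coding transcript. Its centre was in an intron 9.98 kb downstream of the MANE Select start, and it also held 1 AP-1 match, 270 bases from the GATA match. This peak was chosen for naming after its motifs were seen. A known enhancer with an E-box and a GATA motif lies in an intron of GATA2, and whether the peak marks it was not tested.

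The other 4 GATA2 peaks were distal. Each held a GATA match in the whole peak, as did 68.3% of all distal peaks. One of 285 bp, chr3:128202580-128202864, had its centre in an exon 90 bp from the intron peak and held 1 RUNX match 159 bases from its GATA match. Upstream of the gene, inside GATA2-AS1, lay a row of 3 peaks with centres 2.51, 3.50 and 4.6 kb from the MANE Select start. The peaks at chr3:128214417-128214689 (273 bp) and chr3:128215453-128215635 (183 bp) held the composites shown above. The widest distal peak, chr3:128216321-128216963 (643 bp, 69.7% GC), held 2 GATA matches and 2 G4 motifs. The first and the last of this row thus held both GATA and G4 motifs.

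RUNX1, the DNA-binding subunit of core binding factor, held 11 peaks over 661 kb. Its window is 1257 kb because 1 coding transcript starts far upstream of the others, and the density of 0.875 per 100 kb was above that of 37.6% of coding genes. The promoter with the MANE Select start (chr21:36421567-36421641), known as the distal promoter, had no peak within 1 kb, although a peak of 235 bp lay 1.98 kb away. The widest of the 32 peaks, chr21:36260597-36262706 (2110 bp, 71.1% GC), lay at the internal, proximal promoter. It held 14 SP/KLF matches, 5 G4 motifs, 2 RUNX matches and 0 GATA matches. A narrower peak of 330 bp lay beside it, with a gap of 29 bp.

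The other 9 RUNX1 peaks were distal and intronic, and 8 of them held at least 1 GATA match, as did 68.3% of all distal peaks. The widest, chr21:36398801-36399784 (984 bp), had its centre 22.3 kb downstream of the MANE Select start and held the second RUNX1 composite, 2 RUNX matches and 1 G4 motif. The peak chr21:36280408-36281292 (885 bp) held 6 GATA matches, the highest number among the distal peaks of the 10 genes, and the first composite. GATA was found with AP-1 at chr21:36355369-36355788 and chr21:36855416-36855964, and with ETS at chr21:36577221-36577802. Of the 9, 5 lay upstream of the MANE Select start, the farthest by 499 kb, inside the span of the long transcript. For the 2 farthest, chr21:36855416-36855964 among them, the nearest coding start was that of FKSG68. The centre of the peak at chr21:36855416-36855964 is shown because 3 GATA matches fall in its 200 bp. The centres of the widest distal peaks of MEIS1 and IKZF1 and of the GATA2 intron peak are shown beside it. All are on the plus strand of hg19, with GATA, AP-1, RUNX, ETS and PU.1 matches that lie wholly inside the stretch in capitals. The AP-1 match of the RUNX1 peak, at chr21:36855788-36855794, runs past the end of its stretch and is not in capitals. The GATA2 stretch ends inside the composite shown above.
RUNX1, chr21:36855591-36855790: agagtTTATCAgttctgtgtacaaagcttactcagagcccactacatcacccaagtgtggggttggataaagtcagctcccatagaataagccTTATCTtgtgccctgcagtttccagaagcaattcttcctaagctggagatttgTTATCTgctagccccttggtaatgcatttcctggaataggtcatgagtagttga
MEIS1, chr2:66708399-66708598: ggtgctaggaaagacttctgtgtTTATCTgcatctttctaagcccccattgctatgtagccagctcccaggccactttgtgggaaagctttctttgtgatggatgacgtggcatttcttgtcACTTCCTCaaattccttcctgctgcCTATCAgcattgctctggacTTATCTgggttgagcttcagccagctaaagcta
IKZF1, chr7:50423665-50423864: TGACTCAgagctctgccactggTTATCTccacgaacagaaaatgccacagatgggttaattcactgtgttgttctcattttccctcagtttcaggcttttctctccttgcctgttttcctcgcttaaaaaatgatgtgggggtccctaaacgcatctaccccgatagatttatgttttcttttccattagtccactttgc
GATA2, chr3:128201966-128202165: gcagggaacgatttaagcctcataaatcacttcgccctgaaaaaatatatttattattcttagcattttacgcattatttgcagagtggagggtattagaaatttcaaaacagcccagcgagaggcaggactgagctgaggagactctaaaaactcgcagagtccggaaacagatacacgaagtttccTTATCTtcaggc

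MEIS1, a homeobox factor that works with HOX proteins, had a peak of 212 bp at its MANE Select start, chr2:66662244-66662455, with 0 GATA matches and 0 G4 motifs. Its other 3 promoters had none. The distal peak, chr2:66708240-66708756 (517 bp), lay in an intron 46.2 kb downstream of that start. It held 3 GATA matches, with a PU.1 match 17 bases and a RUNX match 37 bases from the nearest of them.

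MECOM, whose transcripts encode the zinc finger protein EVI1 and a longer form, had its 3 peaks within 1.40 kb of each other. All lay at the internal promoters, 517 kb downstream of the MANE Select start in the case of the widest, chr3:168864017-168864624 (608 bp). The promoter of the long form (chr3:169381500-169381563) had no peak, the nearest lying 94.6 kb away. A peak of 27 bp lay 48 bp from the widest one, and a peak of 363 bp lay 354 bp beyond that. The narrowest of the 3 was also the narrowest of the 32. No distal peak was found in the 620 kb window. The peaks of 608 and 363 bp each held 1 GATA match.

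SPI1, the ETS factor PU.1 of myeloid and B cells, had 1 promoter peak and 4 distal peaks, a density of 7.85 per 100 kb that was above that of 88.3% of coding genes. The promoter peak, chr11:47399725-47400502 (778 bp), covered the MANE Select start and held 2 GATA matches, 1 ETS match 58 bases from the nearer one, and 2 G4 motifs. The widest distal peak, chr11:47387849-47388127 (279 bp), held the intronic composite. Of the other 3, the pair of 186 and 151 bp had MYBPC3 as the gene with the nearest coding start, and the narrower lay inside MYBPC3, which encodes a cardiac myosin-binding protein.

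The ETS factors ERG and FLI1, which act in stem cells and megakaryocytes, had fewer peaks than SPI1. None of the 4 ERG promoters had one. A single peak of 193 bp, chr21:39848456-39848648, lay in an ERG intron 21.8 kb downstream of the MANE Select start and held 1 GATA match. FLI1 had no peak in its 167 kb window, and the nearest region of the list lay 1082 kb from the gene. Among the 6336 coding genes with no peak in their windows, 95.6% had a nearer one, and the median distance was 103 kb.

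CEBPA, a basic leucine zipper factor of granulocyte differentiation, had 1 peak, chr19:33793249-33793560 (312 bp, 77.2% GC), over its only start. It held 1 G4 motif and 0 GATA matches, and the non-coding gene CEBPA-DT also starts within 1 kb of it. GFI1, a zinc finger repressor of myeloid and lymphoid cells, had no peak at either promoter or elsewhere in its 53.9 kb window. The nearest region lay 26.0 kb from the gene, and 6.68% of the coding genes with no peak in their windows had a nearer one. A region missing from the list may still have been called in 1 of the 3 libraries.

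IKZF1 had no peak at any of its 3 promoters, the nearest to its MANE Select promoter lying 79.1 kb away. Both of its peaks were intronic. Both held GATA and AP-1 matches, as did 17.1% of all distal peaks. The wider, chr7:50423454-50424074 (621 bp), held 3 GATA matches and the composite, with its AP-1 match 15 bases from a GATA match. In the other, chr7:50427588-50428007 (420 bp), 1 GATA match lay 93 bases from the AP-1 match.

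**Figure D3:**
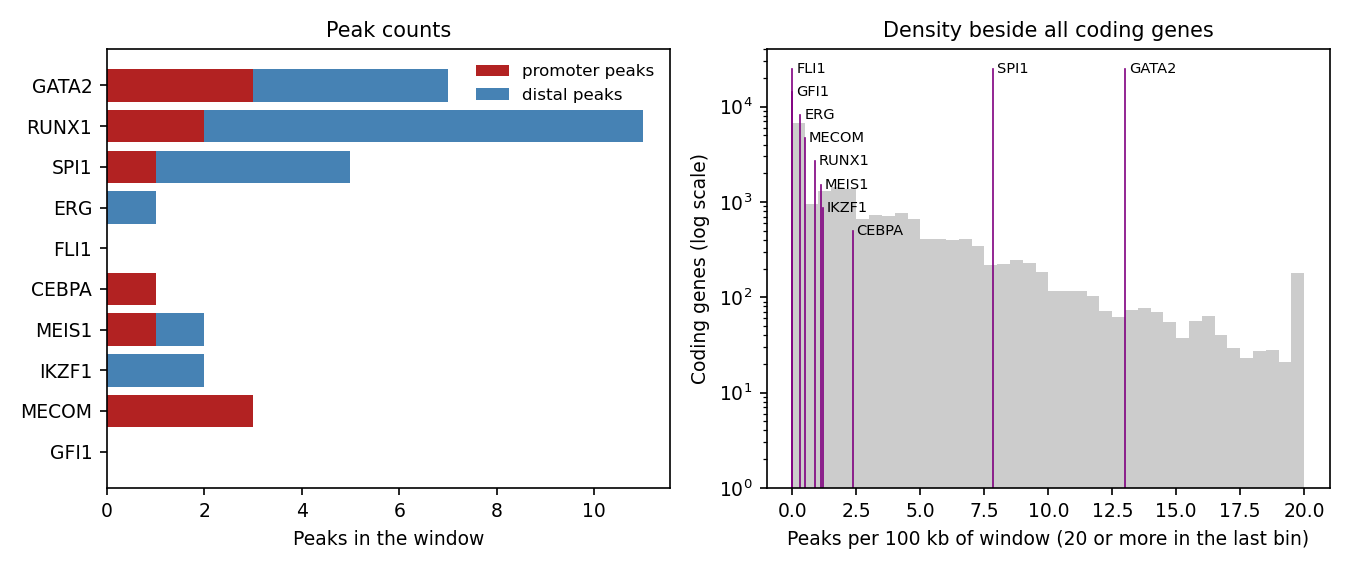
Left, the number of promoter (red) and distal (blue) peaks in each gene's window. Right, the histogram of peaks per 100 kb of window over all 19756 coding genes (log scale on the y axis), with each of the 10 genes marked by a line. GATA2 lies at 13.0, SPI1 at 7.85 and the other 8 genes at 2.35 or less.

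Over the 10 windows together there were 1.09 peaks per 100 kb, beside 2.13 over the windows of all coding genes, which overlap each other. The median of the 10 genes was 0.992 per 100 kb and that of coding genes 1.82. The windows differ in length, with a median of 168 kb for the 10 genes and 67.0 kb for all coding genes. Among windows of at least 100 kb, 5 of 6 of the genes had a peak and 69.0% of coding genes did, with 0.70 and 1.09 peaks per 100 kb. Among shorter windows these were 3 of 4 and 67.5%, with 6.08 and 3.74 per 100 kb.

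The median width of the 32 peaks was 392 bp (95% binomial interval of the median 244 to 582 bp), beside 368 bp for the whole list. Promoter peaks had a median of 363 bp (212 to 1236 bp), beside 421 bp for all promoter peaks. Distal peaks had a median of 420 bp (235 to 578 bp), beside 341 bp for all distal peaks. The medians of the list lay inside these intervals. Only 2 peaks were at least 1000 bp wide, at the internal promoters of RUNX1 and GATA2, a share of 6.25% beside 6.78% of all peaks. There were 5 peaks under 200 bp (15.6%, beside 16.4%).

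**Figure D4:**
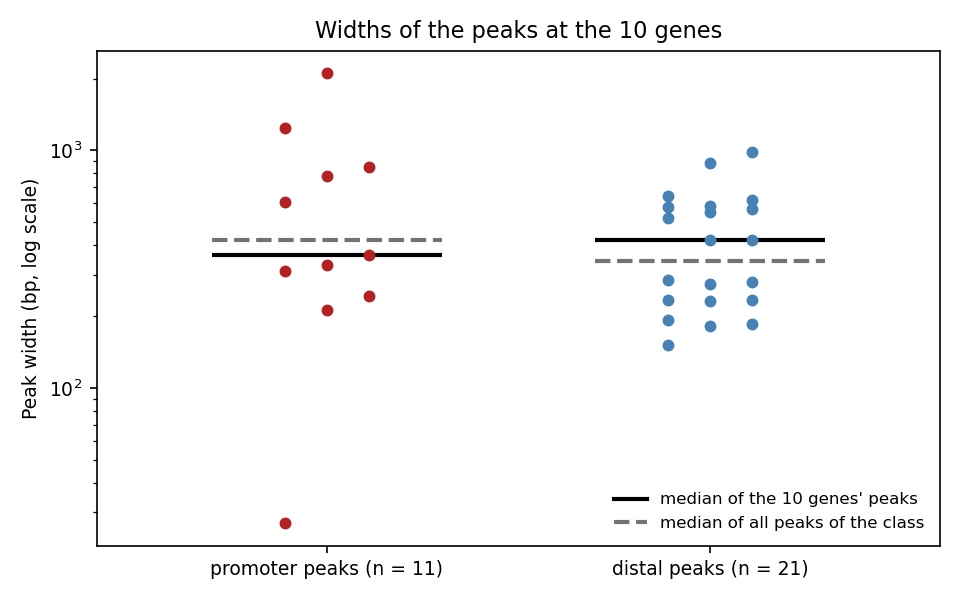
Each point is 1 peak of the 10 genes, by its width in bp (log scale), with 11 promoter peaks on the left and 21 distal peaks on the right; solid lines are their medians (363 and 420 bp) and dashed lines the medians of all promoter and all distal peaks of the list (421 and 341 bp). The sideways position within a class has no meaning.

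A GATA match in the central 200 bp was found in 12 of the 21 distal peaks (57.1%, 36.5 to 75.5%), beside 58.8% of all distal peaks. In the whole peak the share was 17 of 21 (81.0%, 60 to 92.3%), beside 68.3%, and 11 of the 21 held 2 or more GATA matches (52.4%, beside 41.2%). Whole-peak shares depend on width, and the median width was 420 bp for the 21 and 341 bp for all distal peaks. Per kb of peak there were 4.33 GATA matches, beside 3.53. AP-1 was found in the central 200 bp of 4 of 21 (19.0%, 7.67 to 40%), beside 18.4%, and RUNX in 3 (14.3%), beside 14.7%. GATA and AP-1 occurred together in 4 whole peaks (19.0%, beside 17.1%). All of these backgrounds that have an interval beside them lay inside it.

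The remaining motifs were read in the same windows. E-box matches were found in 8 of 21 (38.1%, 20.8 to 59.1%), beside 30.8%, and MEIS matches in 6 (28.6%, 13.8 to 50%), beside 16.2%. IKZF1 matches were found in 7 (33.3%, 17.2 to 54.6%), beside 16.9%, which lay just under the interval; this was 1 of 13 motifs read and was not tested. In the whole peak they were found in 9 (42.9%, 24.5 to 63.5%), beside 30.3%, which lay inside the interval. SP/KLF matches were found in 2 peaks (9.52%, beside 12.3%). ETS, PU.1 and CTCF matches were found in 1 peak each, beside 2.62%, 2.51% and 3% of all distal peaks, and CEBP and GFI1 matches in 0, beside 1.07% and 0.334%. At such low background shares, counts of 0 or 1 in 21 peaks say nothing about these genes. Among the 11 promoter peaks, 4 held a GATA match in the central 200 bp (36.4%, 15.2 to 64.6%), beside 14.2% of all promoter peaks, which lay under the interval. In the whole peak the GATA share was the same 4 of 11, beside 27.6%, which lay inside it. GATA was again 1 of 13 motifs read and was not tested. In the central 200 bp the backgrounds of the other motifs lay inside their intervals. E-box matches, for example, were found in 27.3% (9.75 to 56.6%), beside 16.9%, and SP/KLF matches in 45.5% (21.3 to 72.0%), beside 54.9%. The 4 peaks with a GATA match were the GATA2 intron peak, the SPI1 promoter peak and the MECOM peaks of 608 and 363 bp, of which the first is a promoter peak by a short transcript alone. The MECOM peaks lay within 1.40 kb of each other and are not independent.

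**Figure D5:**
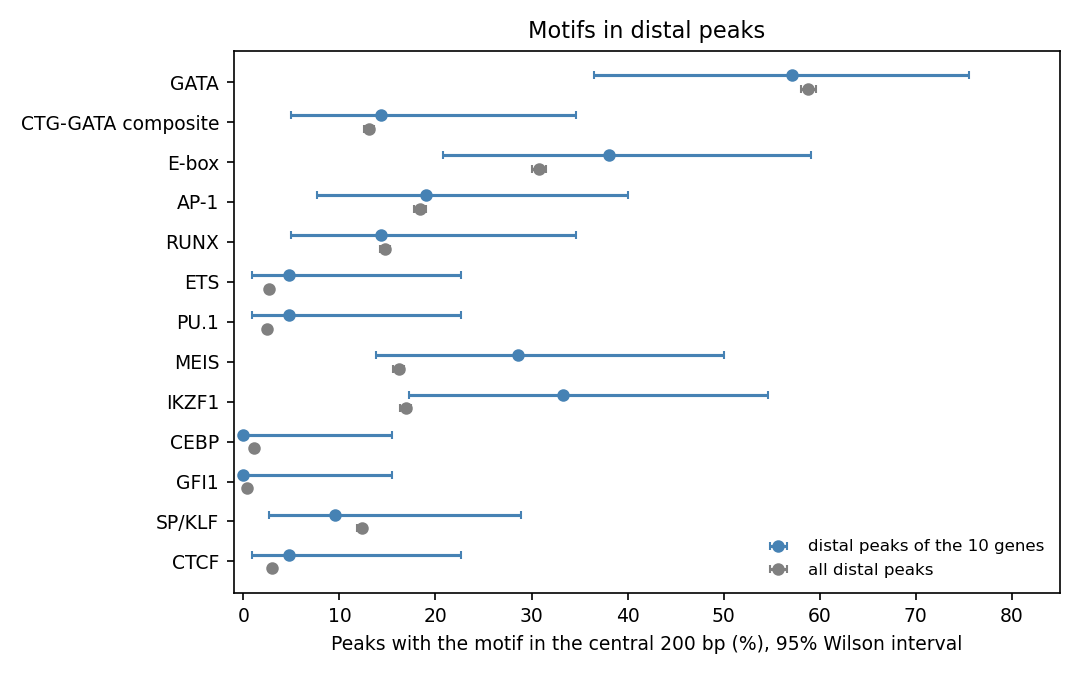
Share of peaks (x axis, percent) with each motif in the central 200 bp, for the 21 distal peaks of the 10 genes (blue) and all 16474 distal peaks (grey), with 95% Wilson intervals. The GATA shares are 57.1% and 58.8%, and the IKZF1 motif is the one whose grey point lies outside the blue interval.

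A G4 motif (4 guanine runs, each 3 or longer, separated by loops 1 to 7 bases long, on 1 strand) lay wholly inside 7 of the 32 peaks (21.9%, 11 to 38.8%), beside 23.4% of all peaks. Among promoter peaks these were 4 of 11 (36.4%, 15.2 to 64.6%), beside 41.6%, and among distal peaks 3 of 21 (14.3%, 4.98 to 34.6%), beside 10.3%. The promoter peaks with a G4 motif were those of GATA2, RUNX1, SPI1 and CEBPA named above, and the distal ones were a pair upstream of GATA2 and the widest in RUNX1. The motif nearest to the centre of each such promoter peak is shown, 5′ to 3′ on the guanine-rich strand of hg19, with the guanine runs in capitals.
GATA2, chr3:128207829-128207857, minus strand: GGGagcctcGGGcccaacaGGGaagaGGG
RUNX1, chr21:36261879-36261909, minus strand: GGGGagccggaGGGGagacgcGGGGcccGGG
SPI1, chr11:47400294-47400321, plus strand: GGGGGctaagctGGGGaGGGaggatGGG
CEBPA, chr19:33793394-33793419, minus strand: GGGcgcGGGcgagcaGGGtctccGGG

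In CEBPA the motif lay 2.00 bp from the peak's centre, in GATA2 128 bp, in SPI1 194 bp and in RUNX1 242 bp. Whether these sequences fold in the cells is not given by the list.

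The genes of 3 further lists, chosen with earlier results of these data known, were counted in the same way. Of all coding genes, 67.9% had a peak and 46.9% a promoter peak, with 2.13 peaks per 100 kb. Of 12 partner factors (TAL1, LYL1, LMO2, GATA1, KLF1, GFI1B, NFE2, MYB, CBFB, ETV6, LDB1, HHEX), which act with the 10 factors or in erythroid cells, 12 had a promoter peak and 12 a peak at the MANE Select start, with 6.87 peaks per 100 kb. Of their 67 peaks, 11 lay at the starts of other coding genes. Within this list the window of NFE2, an erythroid and megakaryocytic factor, held 18 peaks, the highest count, of which 4 were at its own promoters and 5 at the starts of other coding genes. Of 8 other myeloid factors (CEBPB, CEBPD, CEBPE, IRF8, KLF4, HOXA9, PBX3, EGR1), 5 had a peak and 4 a promoter peak, with 2.20 peaks per 100 kb. Of 9 lymphoid factors (PAX5, EBF1, IKZF3, BCL11B, TCF7, GATA3, SPIB, POU2AF1, TBX21), 4 had a peak and 1, TCF7, a promoter peak, with 0.365 per 100 kb. The median windows of the 3 lists were 54.9, 44.7 and 143 kb, so their densities are not directly comparable, and the differences between lists were not tested.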

How the data were processed

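The starting point was the list of SMARCA4 peaks in K562 cells that the authors deposited. Per the study's methods, reads were aligned to hg19 with BWA, duplicates were removed, peaks were called per replicate with MACS2 against input, and regions in at least 2 of 3 replicates were kept. The deposited values are chromosome, start and end in bp, so replicates are pooled and the list gives no depth. Positions are counted from 1.

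Peaks were compared with GENCODE release 44 mapped to hg19 and with the hg19 sequence, using Python 3.11.15, numpy 2.4.6, scipy 1.17.1, pysam 0.24.0 and matplotlib 3.10.9. Genes on chromosome Y were left out of the background. Interval and motif functions were tested on simulated data. Shares carry 95% Wilson intervals, and no test between groups was run, since there is 1 list and 1 condition. Peaks named were, per gene, the widest promoter and distal peak and any distal peak with the composite, or with GATA and a RUNX, ETS or AP-1 match. Alternatives varied peak width, merging, the window, the promoter rule, the motif window and the G4 loop length, or left out RUNX1. The members and lists were chosen with earlier results of these data known. From the other myeloid and lymphoid lists, 3 genes are not reported here and were left out of the counts. Signal tracks and endogenous G4 sites were not analysed here.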

Additional observations from a re-analysis of the deposited data

How the results depend on the processing

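The counts, density, median width and shares were recomputed with peaks of at least 200 bp, with peaks at most 500 bp apart merged, and with other windows and promoter rules. Other motif windows, G4 loops of up to 12 bases and leaving out RUNX1 were also tried. Of 75 such values, 69 stayed within the interval of the main value or within 1.5 times the main count, and 6 did not. The share of distal peaks with a GATA match rose from 57.1% to 81.0% in the whole peak and likewise to 81.0% in the central 400 bp, where all distal peaks gave 68.3% and 71.4%. G4 motifs were found in fewer peaks, and their share fell from 21.9% to 9.38% when only the central 200 bp were read, a window shorter than most of these peaks. With G4 loops of up to 12 bases the share rose to 34.4%, which stayed within the interval of the main value. Some alternatives were chosen after seeing the data. With the MANE Select start alone as promoter, 3 genes in place of 6 had a promoter peak. Without RUNX1, 21 peaks in place of 32 and 12 distal peaks in place of 21 were left, since this gene held 11 and 9 of them.

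No paired analysis was possible because the list pools the replicates, and for the same reason no replicate could be left out in turn. With 21 distal and 11 promoter peaks, intervals are wide, and a share near that of all peaks says little about these genes. The list has no heights, so a weak and a strong peak count alike.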

Other observations

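A wider window of 50 kb on each side added 4 peaks, at GATA2, SPI1 and GFI1. The GFI1 peak, chr1:92911986-92912633 (648 bp), lay 26.0 kb downstream of the gene and held 6 GATA matches and 1 composite. The nearer SPI1 peak, chr11:47421507-47422024 (518 bp), lay 21.4 kb upstream of the gene and held 3 GATA matches, 1 composite and 3 G4 motifs. The farther one, 29.2 kb upstream and 1059 bp wide, lay at the start of SLC39A13. The GATA2 peak, chr3:128251868-128252174 (307 bp), lay 39.8 kb upstream and held 2 GATA matches. ERG, FLI1, CEBPA, MEIS1, IKZF1, MECOM and RUNX1 gained none.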
